A study of Mus musculus with 2 samples.

Results

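Fc receptors are the proteins through which macrophages bind the constant part of antibodies. The 7 genes followed here were Fcgr1, Fcgr2b, Fcgr3, Fcgr4, Fcer1g, Fcgrt and Fcrls, taken by symbol from the 31053 genes of the count matrices, and each had UMIs (unique molecular identifiers, each standing for 1 captured RNA molecule) in both libraries. The libraries held adipose tissue macrophages (ATMs) sorted as CD45+Lin-Ly6Clow/-F4/80+ cells from the epididymal fat of male C57/BL6 mice aged 8 to 12 weeks. Cells of 3 mice kept on control diet (CD, 11% of calories from fat) were pooled into 1 library, and cells of 3 mice given a high fat diet overnight (HFD, 58% of calories from fat) into the other, so that each diet had 1 library and no replicate. No test between the diets was therefore possible, no p-value is given, and the diet cannot be told apart from the library. Every interval below is a 95% interval that covers counting error only. All are exact except those of differences in the activating to inhibitory ratio, which are approximate (Wald) intervals.

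In the mouse, the proteins of Fcgr1, Fcgr3 and Fcgr4 are activating receptors for IgG and signal through the shared gamma chain encoded by Fcer1g, whose cytoplasmic motif recruits the kinase Syk. Fcgr2b encodes the only inhibitory IgG receptor, which recruits the lipid phosphatase encoded by Inpp5d. Fcgrt encodes the heavy chain of the neonatal Fc receptor, which pairs with beta-2 microglobulin (B2m) inside endosomes and returns IgG and albumin to the cell surface instead of letting them be degraded. Fcrls is an Fc receptor-like scavenger gene that is widely used as a microglia marker. Macrophages use these receptors to take up opsonised particles and immune complexes, and in fat they are present on resident and on monocyte-derived cells.

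On the GRCm38 assembly (mm10, GENCODE vM21 annotation) Fcgr2b (chr1:170958617-170976547, minus strand), Fcgr4 (chr1:171018920-171029761, plus strand), Fcgr3 (chr1:171051174-171064935, minus strand) and Fcer1g (chr1:171229572-171234365, minus strand) lay within 276 kb of chromosome 1. Fcgr1 (chr3:96282909-96293969) and Fcrls (chr3:87250758-87263738) were both on the minus strand of chromosome 3, and Fcgrt (chr7:45092990-45103851) on the minus strand of chromosome 7. Fcgr2b and Fcgr3 encode near-identical outer domains. Of the 60-base words of the longest coding transcript, 5.77% of those of Fcgr2b and 10.6% of those of Fcgr3 were found in another gene, while in the last 500 bases, from which 3′ libraries are read, none of the 441 words of any of the 7 genes was shared. Fcgr2b and Fcgrt overlap an antisense gene on the other strand, by 3175 and 5331 bases, and Cell Ranger counts reads of the sense strand. Short annotated RNAs lie inside Fcgr3 (Mir6546, 62 bases) and Fcgr4 (Gm26110, 165 bases) on the same strand.

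RefSeq promoters (GRCm38.p6, 250 bases before to 50 bases after an annotated start) were found for 7 of the 7 genes. The 4 shown belong to the genes whose levels differed most between populations or libraries. Capitals mark every match on either strand to 8 motifs, and the matches of different motifs did not overlap in these windows. GAGGAA is the core bound by PU.1, the lineage factor of macrophages, and TTCNNNGAA is the GAS element bound by STAT factors. The paired IRF element was searched as GAAA repeated after 2 further bases of any kind, and TTGCNNAA stands for C/EBP sites. TGCTGA is the core of MAF sites and TATAAA the TATA box. TGANTCA for AP-1 (7.81% of all promoters) and the E-box letters CACGTG (7.15%) were also searched and were not found in the 4 windows.
Fcgr1 (chr3:96293920-96294219, minus strand): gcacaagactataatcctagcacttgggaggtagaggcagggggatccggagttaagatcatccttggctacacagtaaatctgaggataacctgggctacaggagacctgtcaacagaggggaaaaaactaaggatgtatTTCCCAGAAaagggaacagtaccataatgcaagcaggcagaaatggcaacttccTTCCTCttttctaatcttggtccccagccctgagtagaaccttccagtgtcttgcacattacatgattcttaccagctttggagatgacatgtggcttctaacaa
Fcgr4 (chr1:171018676-171018975, plus strand): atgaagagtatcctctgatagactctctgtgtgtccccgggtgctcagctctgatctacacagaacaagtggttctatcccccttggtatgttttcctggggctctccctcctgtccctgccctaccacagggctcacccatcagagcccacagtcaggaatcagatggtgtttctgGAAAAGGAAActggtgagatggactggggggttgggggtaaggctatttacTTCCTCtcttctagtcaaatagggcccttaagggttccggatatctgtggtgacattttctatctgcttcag
Fcgrt (chr7:45103773-45104072, minus strand): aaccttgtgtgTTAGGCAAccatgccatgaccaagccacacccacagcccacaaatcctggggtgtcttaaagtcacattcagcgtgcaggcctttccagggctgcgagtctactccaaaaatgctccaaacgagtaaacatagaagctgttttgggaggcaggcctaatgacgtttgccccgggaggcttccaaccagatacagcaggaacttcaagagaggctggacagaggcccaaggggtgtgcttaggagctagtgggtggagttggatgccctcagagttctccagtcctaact
Fcrls (chr3:87263475-87263774, minus strand): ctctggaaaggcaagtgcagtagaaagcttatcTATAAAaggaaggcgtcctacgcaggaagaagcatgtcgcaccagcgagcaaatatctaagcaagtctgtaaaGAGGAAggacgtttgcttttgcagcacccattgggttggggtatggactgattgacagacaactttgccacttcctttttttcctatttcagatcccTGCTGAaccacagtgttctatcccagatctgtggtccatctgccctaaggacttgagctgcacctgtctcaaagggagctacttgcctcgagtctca
The PU.1 core was present in the promoters of Fcgr1, Fcgr3, Fcgr4 and Fcrls and in 28.3% of all 32851 promoters of the table. The Fcgr1 promoter held the GAS letters TTCCCAGAA from position -109 of the start, letters of a kind present in 8.30% of promoters, and the Fcgr4 promoter held the IRF letters GAAAAGGAAA from position -73, of a kind present in 3.44%. The Fcgrt promoter held only a C/EBP match (10.8% of promoters). The Fcrls promoter also held a MAF core (19.5%) and the letters TATAAA (13.6%), the latter from position -217 of the start. These matches describe letters and are no measurement of binding.

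Cells were kept where they had 200 to 3500 genes and at most 10% of UMIs from mitochondrial genes, which left 2364 of 4459 barcodes in the CD library (12284010 UMIs, median 4490.5 per cell) and 2021 of 3163 in the HFD library (8086475 UMIs, median 2792 per cell). The libraries shared 7 barcodes among kept cells. Cells were grouped by transcripts other than the 7 genes into Lyve1+ cells (at least 1 Lyve1 UMI, 1172 in CD and 415 in HFD), Folr2+Lyve1- cells (872 and 581), Ccr2+ cells (1326 and 1131), Lyz1-high cells (at least 10 Lyz1 UMIs, 555 and 672) and Plac8+ cells (42 and 73). A cell could be in several groups, and of the Lyz1-high cells 95.7% (CD) and 89.7% (HFD) were also Ccr2+. The summed level of 6 macrophage markers was 9294 CPM (UMIs per 1000000 UMIs of the group) in CD and 5829 in HFD, with none at 0, and that of 5 monocyte markers was 41.6 and 117 CPM, with none at 0. Markers of T or NK cells were near 0 (1.47 CPM in CD and 0.866 in HFD, with Cd3e and Ncr1 at 0). The sums for endothelial, adipocyte, mesothelial, neutrophil and mast cell or basophil markers were between 0 and 15.5 CPM in both libraries, those of 4 dendritic markers were 28.7 and 56.5 CPM, and those of 4 erythroid markers 855 and 939 CPM. The 4 stromal markers were unlike in the libraries, with sums of 71.1 CPM in CD and 4.20 in HFD (Pdgfra at 0 in HFD). The 8 stress and dissociation genes summed to 11539 and 11243 CPM.

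Across all kept cells, 2 of the 7 genes differed between the diets by at least 1.5-fold, and in opposite directions. Fcgr4 stood at 10.7 CPM in CD (131 UMIs) and at 33.3 CPM in HFD (269 UMIs), which is 3.12-fold higher in HFD (log2 ratio 1.64, interval 1.33 to 1.95). Fcgrt stood at 679.9 CPM in CD (8352 UMIs) and at 307 CPM in HFD (2480 UMIs), a log2 ratio of -1.15 (-1.21 to -1.08). Higher and lower are used here for ratios of at least 1.5-fold in genes with at least 100 UMIs over both sides. By that rule 3.8% of the 8708 genes tested were higher in HFD and 7.11% were lower, with a median log2 ratio of -0.01 over all of them, and of the Fc receptor genes 1 was higher and 1 was lower.

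The other 5 genes stayed within 1.5-fold. Fcgr1 was at 43.2 CPM in CD and 32.6 in HFD (log2 ratio -0.40, -0.62 to -0.19). Fcgr3 was at 413 and 468 CPM (0.18, 0.12 to 0.24). The inhibitory Fcgr2b was at 533 and 531 CPM (-0.01, -0.06 to 0.05), the smallest difference of the 7. Fcer1g was at 2599 and 2071 CPM (-0.33, -0.35 to -0.30) and Fcrls at 588 and 465 CPM (-0.34, -0.40 to -0.28). By these values, of the activating receptors, Fcgr1 was lower in value and Fcgr3 and Fcgr4 higher in value in the HFD library. With cells thinned to 800 UMIs, however, the log2 ratio was above 0 for Fcgr1 (0.37), Fcgr3 (0.18) and Fcgr4 (1.78). No split of direction among the activating receptors is therefore read.

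**Figure D1:**
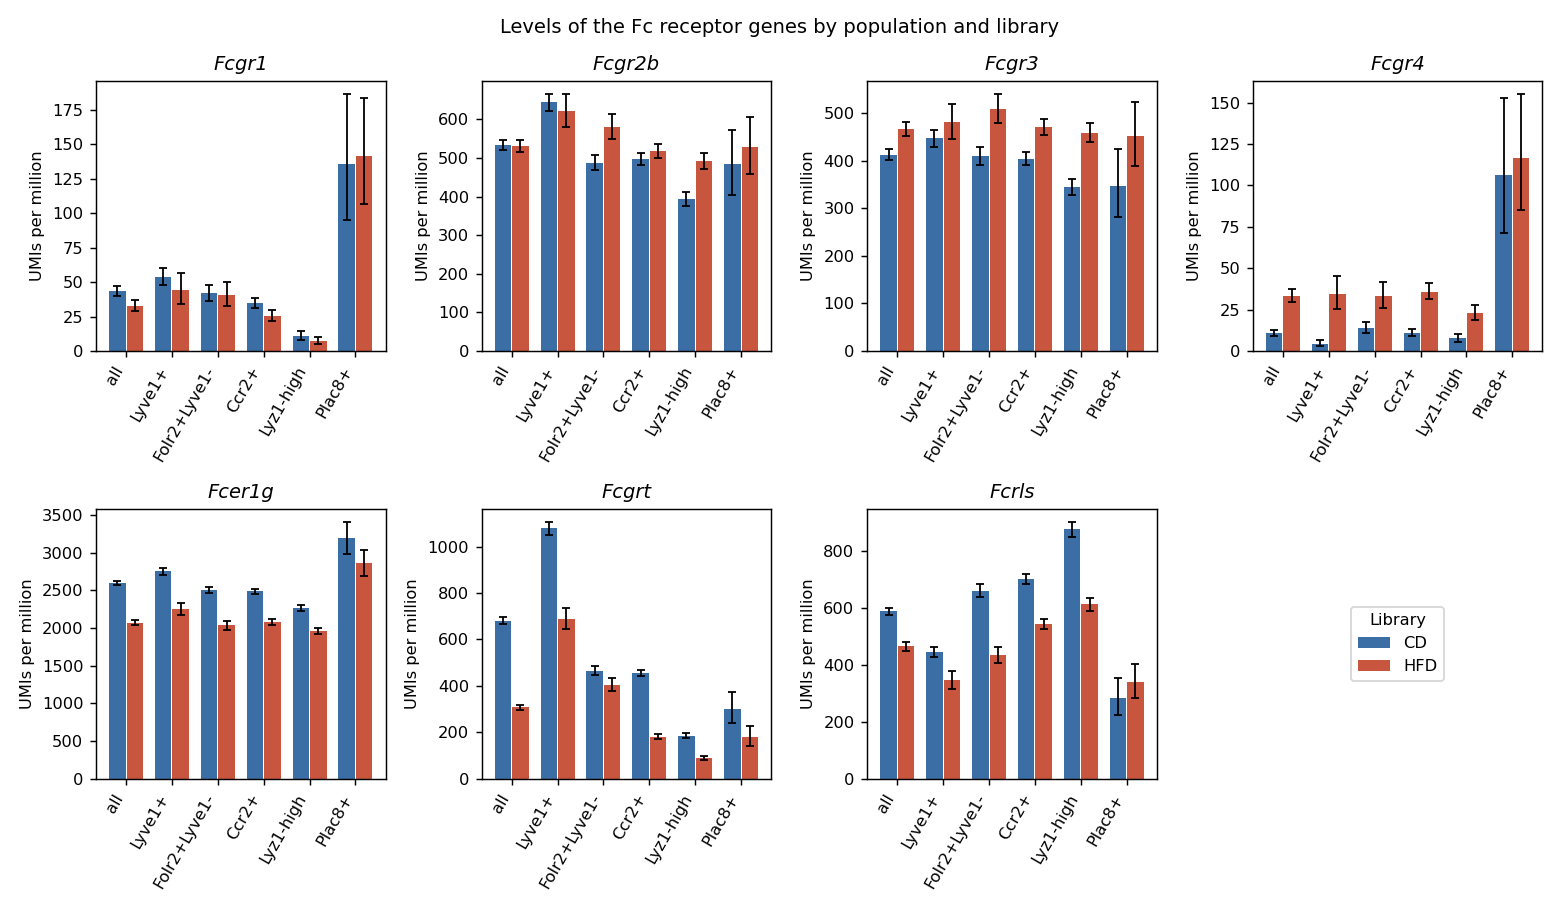
Levels of each Fc receptor gene in CPM (linear axes from 0) in all kept cells and in 5 groups of cells, for the CD (blue) and HFD (red) libraries. Bars are summed UMIs of 1 library per diet and error bars are exact 95% Poisson intervals. Fcgr1 and Fcgr4 are highest in Plac8+ cells, Fcgrt in Lyve1+ cells and Fcrls in Lyz1-high cells in both libraries.

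The groups did not take equal shares of the libraries. Lyve1+ cells made up 49.6% of kept cells in CD (47.5 to 51.6%) and 20.5% in HFD (18.8 to 22.4%), while Lyz1-high cells made up 23.5% and 33.3%. These groups need UMIs of their marker, and HFD cells were shallower (median 2792 UMIs, against 4490.5 in CD). Cells in none of the groups made up 1.99% in CD and 13.7% in HFD, where their median was 1022.5 UMIs. The part of depth in these shares and in the weighting below was not tested. When the HFD levels of 6 non-overlapping classes (each cell in the first group it met, in the order Plac8+, Lyz1-high, Lyve1+, Folr2+Lyve1-, Ccr2+, none) were weighted by the UMI shares those classes had in CD, the log2 ratio of Fcgrt moved from -1.15 to -0.39 and that of Fcgr1 from -0.40 to -0.08. That of Fcgr4 was 1.56 and that of Fcrls -0.57 under the same weights. Fcgrt then no longer passed 1.5-fold, whereas Fcgr4 did.

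**Figure D2:**
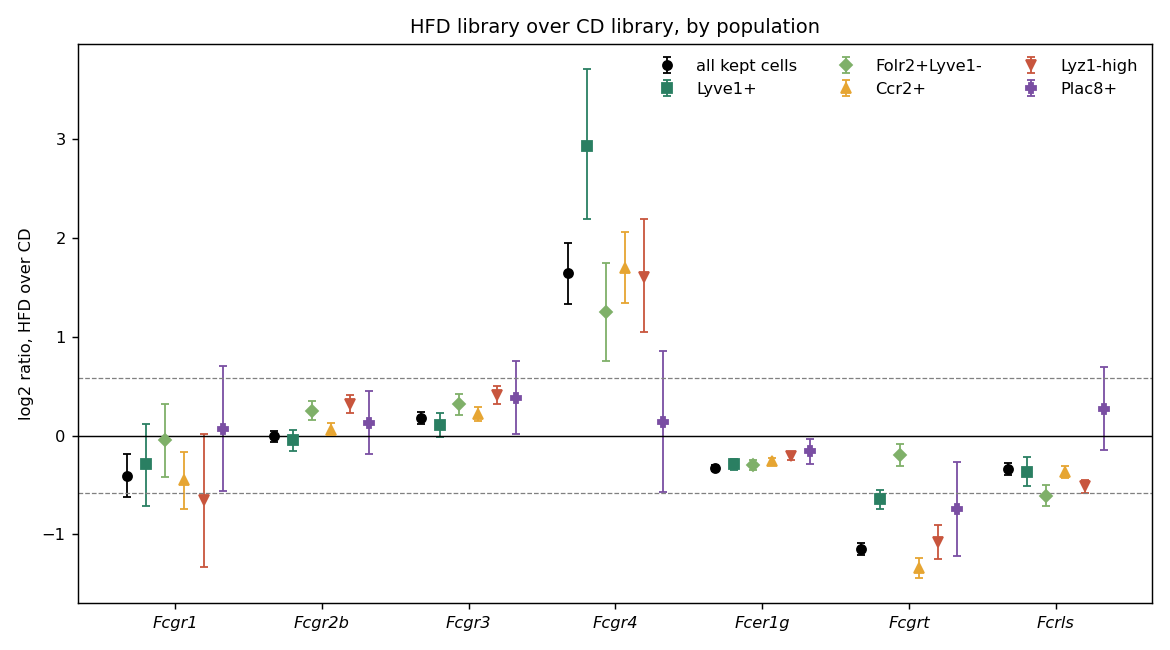
Log2 ratio of HFD over CD for each gene in all kept cells and in each group (symbols), with exact conditional 95% intervals for counting error and dashed lines at 1.5-fold. Fcgr4 lies above 0 in every group, with an interval across 0 only in Plac8+ cells, and Fcgrt lies below 0 in every group.

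Within the groups, Fcgr4 was higher in HFD in Folr2+Lyve1-, Ccr2+ and Lyz1-high cells. In Folr2+Lyve1- cells it was at 13.9 CPM in CD and 32.9 in HFD (log2 ratio 1.25, 0.75 to 1.74). In Ccr2+ cells it was at 11.04 and 35.8 CPM (1.70, 1.34 to 2.06), and in Lyz1-high cells at 7.56 and 23.1 CPM (1.61, 1.05 to 2.20). In Lyve1+ cells it was at 4.47 and 34.1 CPM (2.93, 2.19 to 3.71), the widest ratio of the 5 groups but from 24 and 47 UMIs, fewer than the 100 that the rule asks for. With cells thinned to 800 UMIs it was 1.54. In these Lyve1+ cells the monocyte markers summed to 6.89 CPM in CD and 42.1 in HFD (Chil3 at 0 in HFD) and the dendritic markers to 7.45 and 82.1 CPM (Flt3 at 0 in HFD). Without the Lyve1+ cells that were also Plac8+ the ratio was 2.97, and the part of the other cells with such markers was not tested. In Plac8+ cells, where Fcgr4 was highest in both libraries, it was at 106 and 116 CPM (0.13, -0.57 to 0.86), and a difference was not detectable at 29 and 46 UMIs. The summed level of the 4 stromal markers was 1922 CPM in the CD Plac8+ cells and 5.06 in the HFD ones, and without the cells that held a stromal UMI the ratio was 0.09.

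Counted over each group, 0 members were higher and 1 was lower in Lyve1+ cells, where 4.79% of all genes tested were higher and 6.8% lower. In Folr2+Lyve1- cells 1 was higher and 1 lower (4.89% and 4.48% of all genes), in Ccr2+ cells 1 and 1 (3.08% and 6.71%), and in Lyz1-high cells 1 and 1 (2.99% and 4.67%). In Plac8+ cells 0 were higher and 1 was lower (5.4% and 5.75%). Fcgrt was the lower member in each of these groups except Folr2+Lyve1-, where it was Fcrls.

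Fcgr4, whose protein binds IgG2a and IgG2b, was the sparsest of the 7. It had a UMI in 91 CD cells (3.85%) and in 195 HFD cells (9.65%), and in 82.4% and 77.4% of those cells the count was 1. The 10 cells with the most Fcgr4 UMIs held 33.6% of its UMIs in CD and 17.5% in HFD, and the highest cell held 8 in each. After each cell was thinned to 800 UMIs the share of cells with a UMI was 0.643% in CD (0.360 to 1.06%) and 2.35% in HFD (1.71 to 3.14%), and the intervals did not overlap. In CD, Plac8+ cells gave 22.1% of the Fcgr4 UMIs with 2.22% of all UMIs, and their Fcgr4 UMIs were in 7 of 42 cells. In HFD Plac8+ cells gave 17.1% with 4.89%, from 23 of 73 cells. Lyz1-high cells that were not Plac8+ gave the most in HFD, 36.4% with 54.9% of all UMIs.

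The order of the groups for Fcgr4 in CD was Plac8+ (106 CPM, 71.1 to 153), Folr2+Lyve1- (13.9, 10.8 to 17.6), Ccr2+ (11.04, 8.94 to 13.5), Lyz1-high (7.56, 5.30 to 10.5) and Lyve1+ (4.47, 2.86 to 6.65). Only Plac8+ cells stood apart from their neighbour in that order. In HFD the order was Plac8+ (116, 85.2 to 155), Ccr2+ (35.8), Lyve1+ (34.1), Folr2+Lyve1- (32.9) and Lyz1-high (23.1, 18.9 to 27.9), again with Plac8+ cells alone apart from their neighbour. By thinned share Plac8+ cells overlapped with Ccr2+ cells there too (8.22%, 3.08 to 17.0%, against 2.97%, 2.06 to 4.15%). By level, Lyve1+ cells were thus last in CD and among the middle groups in HFD. Their thinned share was instead above that of Lyz1-high cells in CD (0.515%, 0.189 to 1.12%, against 0.360%, 0.0437 to 1.30%). In HFD their thinned share was the lowest of the groups (1.49%, 0.550 to 3.22%), next to that of Lyz1-high cells (1.93%, 1.03 to 3.29%). These intervals overlapped, so no place of Lyve1+ cells in the order is read for Fcgr4. By Lyve1 UMIs per cell, Fcgr4 in CD was at 15.5 CPM in cells with 0, 6.82 with 1, 3.74 with 2 or 3 and 2.99 with 4 or more, whereas in HFD it was at 33.1, 36.03, 25.7 and 40.4 CPM in the same steps, with intervals that overlapped.

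Fcgr1 encodes the high-affinity IgG receptor, known as CD64 and often used to tell macrophages from dendritic cells. In CD its level was 135 CPM in Plac8+ cells (95.4 to 187), 54.0 in Lyve1+ cells (48.0 to 60.6), 42.1 in Folr2+Lyve1- cells (36.6 to 48.2), 34.6 in Ccr2+ cells (30.8 to 38.8) and 10.9 in Lyz1-high cells (8.16 to 14.3). In HFD the levels were 142, 44.3, 40.7, 25.3 and 6.96 CPM in the same order. The 3 middle groups overlapped with their neighbours in CD. By level, Plac8+ and Lyz1-high cells stood apart at either end in both libraries. By thinned share Plac8+ cells overlapped with Lyve1+ cells in both libraries. These shares were 4.76% (0.582 to 16.2%) against 3.52% (2.53 to 4.74%) in CD. In HFD they were 12.3% (5.80 to 22.1%) against 4.23% (2.48 to 6.68%). Cells with at least 2 of the dendritic markers Flt3, Ccl17, Klrd1 and Zbtb46 (12 in CD and 9 in HFD) had 0 Fcgr1 UMIs, which at 3 counts over the group allows up to 30.5 CPM in CD and 39.2 in HFD.

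None of the 5 groups differed by 1.5-fold in Fcgr1 with enough UMIs, but the total moved with the Plac8+ cells. These cells held 6.97% of the Fcgr1 UMIs in CD and 21.2% in HFD. Without them the log2 ratio over all other kept cells was -0.60 in place of -0.40, which passes 1.5-fold. In cells with 2000 to 3500 genes Fcgr1 was at 33.0 CPM in CD and 17.6 in HFD (-0.91, -1.34 to -0.50), in those with 1000 genes or more but under 2000 at 54.5 and 45.99 (-0.24, -0.53 to 0.04), and in those under 1000 genes at 36.8 and 43.4 (0.24, -0.56 to 1.09). Of these 3 bins, the interval lay below 0 in the cells with most genes and spanned 0 in the other two. With each cell thinned to 800 UMIs the ratio was 0.37, from 73 and 71 cells with a UMI.

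Fcgr3, an activating low-affinity receptor, varied less across groups than the other IgG receptors that signal through Fcer1g. In CD it ran from 346 CPM in Lyz1-high cells (329 to 363) to 447 in Lyve1+ cells (430 to 466), with Plac8+ at 348, Ccr2+ at 405 and Folr2+Lyve1- at 410.0 CPM between them. In HFD it ran from 453 in Plac8+ cells to 510.2 in Folr2+Lyve1- cells, and no neighbours in that order stood apart. Its HFD level was above its CD level in all 5 groups, with the smallest log2 ratio in Lyve1+ cells (0.11, -0.02 to 0.23) and the largest in Lyz1-high cells (0.41, 0.32 to 0.50), none of them reaching 1.5-fold. With cells thinned to 800 UMIs the sign turned in Lyve1+ (-0.09) and Plac8+ cells (-0.27), and in Lyve1+ cells it also turned under 3 other alternatives (-0.05 to -0.02).

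Fcgr2b, the inhibitory receptor, was highest in Lyve1+ cells in both libraries, at 644 CPM in CD (623 to 666) and 622 in HFD (581 to 665). In CD the next group was Ccr2+ cells at 497 CPM (483 to 512), apart from Lyve1+ cells, and Lyz1-high cells were lowest at 393 CPM (376 to 412). In HFD the Folr2+Lyve1- cells at 580.2 CPM (549 to 613) overlapped with Lyve1+ cells, and Lyz1-high cells were again lowest at 491 CPM (471 to 512). Between the diets the log2 ratio was 0.25 in Folr2+Lyve1- and 0.32 in Lyz1-high cells, while Lyve1+ cells differed by only -0.05 (-0.16 to 0.06). In the non-overlapping classes it was 0.05 (-0.09 to 0.18) in Folr2+Lyve1- and 0.34 (0.25 to 0.43) in Lyz1-high cells. Over the alternatives the Folr2+Lyve1- value ran from -0.03 to 0.34, so it depended on how the cells were grouped and counted. The study's flow cytometry used a blocking antibody that binds the proteins of Fcgr2b and Fcgr3, and its part in these RNA values was not tested.

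Macrophage responses to immune complexes are often described by the balance of activating and inhibitory receptors. The UMIs of Fcgr1, Fcgr3 and Fcgr4 together were 0.875 times those of Fcgr2b in CD (0.845 to 0.907) and 1.01 times in HFD (0.964 to 1.05), a log2 difference of 0.20 (0.12 to 0.28). This ratio compares captured molecules and not receptors on the surface, so only its changes are read. Of the 5 groups it was lowest in Lyve1+ cells, at 0.785 in CD and 0.901 in HFD, and within each library it was lower there than in Lyz1-high cells by a log2 difference of -0.32 in CD (-0.45 to -0.18) and -0.26 in HFD (-0.45 to -0.07). The difference between the diets was 0.20 in Lyve1+ cells (0.04 to 0.36) and 0.18 in Ccr2+ cells (0.09 to 0.28), and the intervals spanned 0 in Folr2+Lyve1-, Lyz1-high and Plac8+ cells. Fcgr3 held most of the activating UMIs. In the non-overlapping classes the log2 ratios of Fcgr3 and Fcgr2b were -0.03 and -0.02 in Lyve1+ cells and 0.19 and 0.34 in Ccr2+ cells. With cells thinned to 800 UMIs they were -0.09 and 0.02 in Lyve1+ cells. No diet difference in the balance is therefore read for Lyve1+ or Ccr2+ cells. Over all kept cells the log2 ratios of Fcgr3 and Fcgr2b were 0.18 and -0.01. With the HFD classes weighted by their CD UMI shares they were 0.19 and 0.12. The balance was not computed under these weights. The part of the class mix in its difference of 0.20 was thus not tested, and no diet difference is read for all kept cells either.

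**Figure D3:**
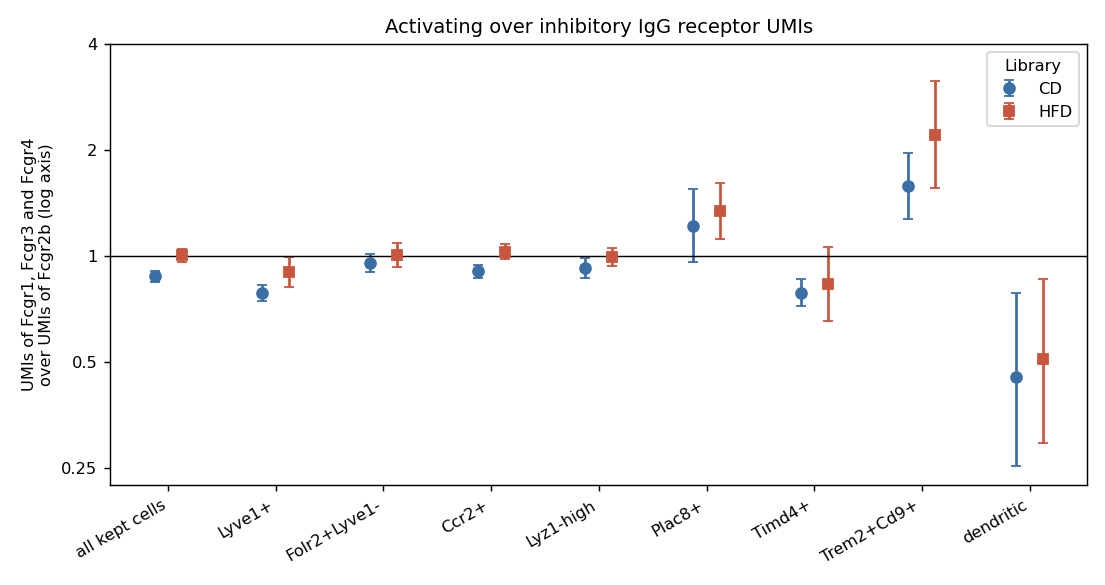
UMIs of the activating receptor genes Fcgr1, Fcgr3 and Fcgr4 over UMIs of the inhibitory Fcgr2b (log axis) by group and library, with exact conditional 95% intervals. The ratio is 0.785 in CD Lyve1+ cells, 1.58 (CD) and 2.20 (HFD) in Trem2+Cd9+ cells, and 0.455 and 0.511 in cells with dendritic markers.

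In several small groups the ratio lay outside the interval of all kept cells of the same library. In Plac8+ cells it was 1.22 in CD (0.963 to 1.55) and 1.34 in HFD (1.12 to 1.62). In Trem2+Cd9+ cells (at least 1 UMI of each, markers of lipid-associated macrophages, 48 in CD and 32 in HFD) it was 1.58 (1.28 to 1.97) and 2.20 (1.56 to 3.14), from 141 and 50 Fcgr2b UMIs. Fcgr2b was at 357 CPM (CD) and 209 CPM (HFD) in these cells, under its level in all kept cells, and Fcgr3 at 471 and 392 CPM. These cells were unlike in the libraries, with erythroid markers at 19556 CPM in CD and 16.7 in HFD and lipid-associated markers at 674 and 1222 CPM, and no diet difference is read from them. In the cells with dendritic markers the ratio was 0.455 (0.254 to 0.788) and 0.511 (0.295 to 0.863), with Fcgr3 at 203 and 274 CPM. Cells with a UMI of Timd4, a marker of resident macrophages (368 and 72 cells), had 0.788 and 0.836, overlapping with Lyve1+ cells. The HFD Timd4+ cells also carried dendritic markers at 499 CPM (28.5 in CD) and monocyte markers at 157 CPM (3.57 in CD).

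Fcer1g, the gamma chain needed by the activating receptors, was detected most widely, in 98.2% of CD and 89.8% of HFD cells. After thinning to 800 UMIs the shares were 84.2% (82.6 to 85.6%) and 75.5% (73.5 to 77.4%). Its level was highest in Plac8+ cells (3196 CPM in CD, 2862 in HFD) and lowest in Lyz1-high cells (2264 and 1963), and the HFD level was below the CD level in all 5 groups, by log2 ratios between -0.30 and -0.16. Folr2+Lyve1- and Ccr2+ cells overlapped in both libraries (2508 and 2488 CPM in CD, 2040 and 2081 in HFD), and Plac8+ and Lyve1+ cells stood apart from the other groups of the 5 in both libraries. The non-macrophage cells that could show how much free RNA the droplets carried were too few for that use, since 4 cells in CD and 2 in HFD had markers of another type and none of macrophages, with 2 Fcer1g UMIs in each library.

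Fcgrt was highest in Lyve1+ cells in both libraries. In CD it was at 1080.0 CPM in Lyve1+ cells (1052 to 1108), 465 in Folr2+Lyve1- cells (446 to 484), 456 in Ccr2+ cells (442 to 470.2), 300.2 in Plac8+ cells (239 to 373) and 186 in Lyz1-high cells (174 to 198). In HFD it was at 689.8 CPM in Lyve1+ cells (647 to 735), 405 in Folr2+Lyve1- cells (379 to 433), 180.0 in Ccr2+ cells (169.6 to 191), 179.6 in Plac8+ cells (140.3 to 227) and 87.9 in Lyz1-high cells (79.6 to 96.9). Lyve1+ cells stood apart at the top and Lyz1-high cells at the bottom in both libraries, and Folr2+Lyve1- cells stood apart from Ccr2+ cells in HFD only, by the overlap of intervals, which is no test of that change.

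The ratio of HFD over CD for Fcgrt depended on the group. It was -0.65 in Lyve1+ cells (-0.75 to -0.55), -0.20 in Folr2+Lyve1- cells (-0.31 to -0.09), -1.34 in Ccr2+ cells (-1.44 to -1.24), -1.08 in Lyz1-high cells (-1.25 to -0.91) and -0.74 in Plac8+ cells (-1.22 to -0.26). With cells counted in 1 class only it was -0.38 in Lyve1+ cells, -1.05 in Lyz1-high cells and 0.11 in Ccr2+ cells (-0.23 to 0.46), where that class held the 98 CD and 235 HFD cells that met no gate but Ccr2. Among all Ccr2+ cells, Lyve1+ cells made up 37.5% in CD and 13.6% in HFD and Folr2+Lyve1- cells 42.8% and 25.6%. With cells thinned to 800 UMIs the ratio was -0.27 in Lyve1+ and -0.18 in Plac8+ cells, no longer past 1.5-fold, and -1.02 in Ccr2+ and -1.49 in Lyz1-high cells. In cells in none of the groups (47 and 276), Fcgrt was instead above its CD level in HFD, at 349 and 548 CPM (0.65, 0.15 to 1.20), from 37 and 223 UMIs. These cells were unlike in the libraries, with erythroid markers at 72724 CPM in CD and 18298 in HFD and endothelial markers at 490 and 54.1 CPM. No diet difference is read from them.

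**Figure D4:**
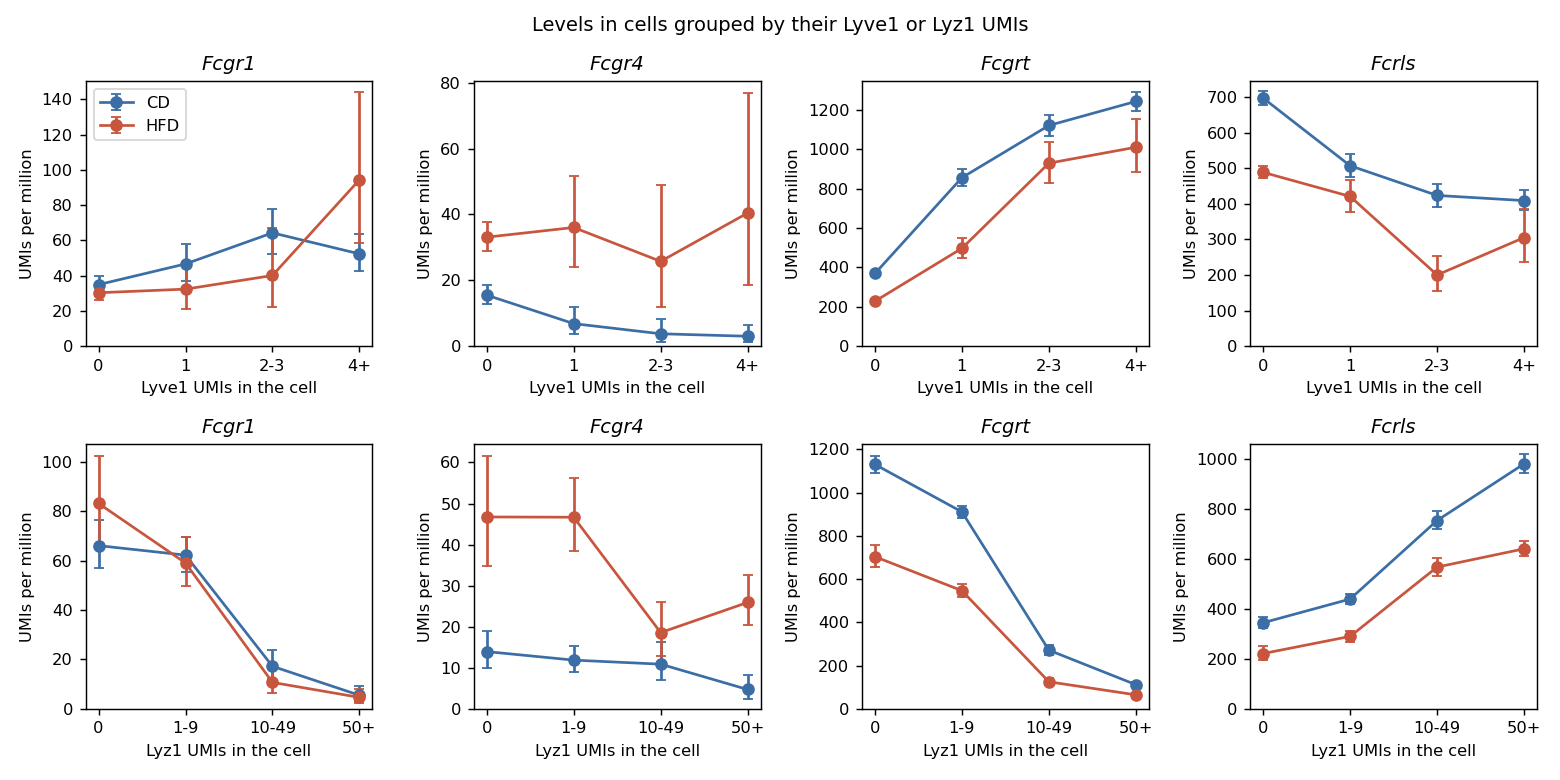
Levels in CPM of Fcgr1, Fcgr4, Fcgrt and Fcrls in cells grouped by their number of Lyve1 UMIs (top) or Lyz1 UMIs (bottom), in CD (blue) and HFD (red), with exact 95% Poisson intervals. Fcgrt goes from 369 to 1243 CPM over the Lyve1 steps in CD and from 1131 to 112 CPM over the Lyz1 steps, and Fcrls runs the other way.

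Fcgrt followed the number of Lyve1 UMIs per cell. In CD it was at 369 CPM in cells with 0 Lyve1 UMIs, 856 with 1, 1121 with 2 or 3 and 1243 with 4 or more, and in HFD at 228, 497, 929.5 and 1011 CPM. Against Lyz1 it ran the other way, from 1131 CPM in CD cells with 0 Lyz1 UMIs to 911 with 1 to 9, 271 with 10 to 49 and 112 with 50 or more, and in HFD from 704 to 546, 125 and 64.6 CPM. These steps also follow depth, since the median UMIs per cell were 3213 in the first and 10332 in the last of the Lyz1 steps in CD. By genes per cell, Fcgrt in CD was at 1178 CPM (under 1000 genes), 944 (1000 to under 2000) and 385 (2000 to 3500), and the HFD level was lower in each, at 791, 360.4 and 119.7 CPM, so that the log2 ratio was -0.57, -1.39 and -1.69.

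Fcrls differed from Fcgrt in its order. It was highest in Lyz1-high cells, at 877 CPM in CD (851 to 904) and 613 in HFD (591 to 636), followed by Ccr2+ cells at 702 and 544, Folr2+Lyve1- cells at 661 and 433 and Lyve1+ cells at 446 and 346, with Plac8+ cells lowest at 282 (222 to 352) and 339 (284 to 402). By their intervals all neighbours stood apart in CD, and in HFD all but Lyve1+ and Plac8+ cells. Ccr2+ and Folr2+Lyve1- cells were apart in CD only by interval ends of 684.9 and 684.4 CPM. The groups share cells, so these intervals are not independent. In the non-overlapping classes Ccr2+ and Folr2+Lyve1- cells were at 506 and 469 CPM in CD and 342 and 301 in HFD. Along the Lyz1 steps Fcrls went from 345 to 440.1, 755 and 982 CPM in CD and from 222 to 290.3, 568 and 642 in HFD. The HFD level was below the CD level in 4 of the 5 groups, most in Folr2+Lyve1- cells (-0.61, -0.72 to -0.51), and in Plac8+ cells the ratio was 0.27 with an interval across 0 (-0.15 to 0.69). By genes per cell the ratio over all kept cells was -0.72 in cells with under 1000 genes, 0.07 (-0.02 to 0.16) in those with 1000 to under 2000 and -0.47 in those with 2000 to 3500, so that it was not below 0 in the middle bin. A gene used to mark microglia was here held mostly by the Lyz1-high class, which gave 57.3% of its UMIs in CD with 38.01% of all UMIs and 72.4% in HFD with 54.9%.

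The comparison of Lyve1+ with Lyz1-high cells sets cells with Lyve1, a marker of resident ATMs, against cells high in Lyz1, a gene of monocytes and cells derived from them, and cells in both groups were left out of both sides (1049 and 432 cells in CD, 361 and 618 in HFD). In CD, Fcgrt was 9.55-fold higher in Lyve1+ cells (1259 against 132 CPM, log2 ratio 3.26, 3.12 to 3.39), Fcgr1 was 6.38-fold higher (64.1 against 10.1 CPM, 2.67, 2.17 to 3.21) and Fcgr2b 1.87-fold higher (683 against 365 CPM, 0.90, 0.81 to 0.998). Fcrls was lower, at 367 against 911 CPM (-1.31, -1.40 to -1.23). This made 3 members higher and 1 lower, where 25.3% of all 6367 genes tested were higher and 11.5% lower and the median gene was shifted by 0.17. Relative to that shift Fcgr3 (0.46) and Fcer1g (0.34) lay above it and Fcgr4 (-0.90, from 20 and 32 UMIs) below.

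**Figure D5:**
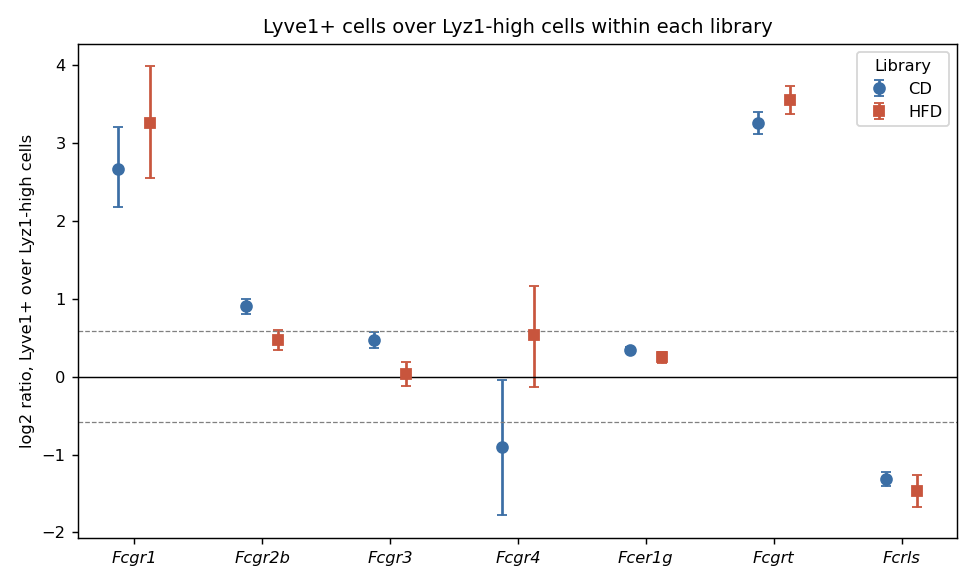
Log2 ratio of Lyve1+ over Lyz1-high cells within each library for the 7 genes, cells in both groups left out, with exact conditional 95% intervals and dashed lines at 1.5-fold. Fcgrt and Fcgr1 lie above 2.5 and Fcrls below -1.2 in both libraries, and Fcgr4 is at -0.90 in CD and 0.53 in HFD, signs that both turn when cells are thinned to 800 UMIs (0.31 and -0.43).

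In HFD, Fcgrt was 11.7-fold higher in Lyve1+ cells (965 against 82.4 CPM, 3.55, 3.37 to 3.73) and Fcrls lower (223 against 615 CPM, -1.46, -1.68 to -1.26). Fcgr1 was at 59.8 against 6.28 CPM (3.25, 2.55 to 3.98) but had 81 UMIs in all, under the minimum of 100. Fcgr2b was at 677 against 489 CPM (0.47, 0.34 to 0.60), and Fcgr3 at 462 against 452 CPM (0.03, -0.12 to 0.19). With 1 higher and 1 lower, the background was 23.4% higher and 13.8% lower of 4808 genes, with a median of 0.12. The ratio of Fcgr4 was 0.53 (-0.13 to 1.16), on the other side of 0 from CD, but with cells thinned to 800 UMIs it was 0.31 in CD and -0.43 in HFD, so no direction is read for this gene. Whether these ratios differed between the libraries was not tested. The Lyve1+ cells were the shallower side in both libraries (median 3800 against 7923.5 UMIs in CD, 2064 against 6438 in HFD), so the ratios were also taken with cells thinned to 800 UMIs. Fcgrt was then at 2.90 in CD and 3.98 in HFD, Fcgr1 at 2.47 and 3.83, Fcgr2b at 0.93 and 0.33 and Fcrls at -1.30 and -1.60, while Fcgr3 was at 0.38 and -0.30.

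The genes that work with the receptors were read from fixed lists. B2m, the light chain of the neonatal receptor, was at 2205 CPM in CD and 2013 in HFD (log2 ratio -0.13, -0.16 to -0.10). Within the libraries it was on the same side as Fcgrt, at 2757 CPM in Lyve1+ against 1443 in Lyz1-high cells in CD (0.93, 0.89 to 0.98) and 2474 against 1675 in HFD (0.56, 0.49 to 0.63). Of 17 adapters, kinases and effectors of activating signalling, 0 were past 1.5-fold between the diets in all kept cells, beside 3.8% higher and 7.11% lower of all genes. Their median log2 ratio was 0.21, beside -0.01 over all genes tested. In Lyve1+ cells 2 of 16 tested were higher and 1 lower, beside 4.79% and 6.8% of all genes. In Lyz1-high cells 0 of 16 were past 1.5-fold, beside 2.99% higher and 4.67% lower of all genes. Nothing particular to this list is read from these counts. Over all kept cells, the adapter Tyrobp was at 2026 and 2323 CPM (0.20, 0.17 to 0.22) and the kinase Syk at 121 and 151 CPM (0.32, 0.21 to 0.43).

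Of 11 genes of inhibitory signalling 1 was higher in HFD over all kept cells, the phosphatase Inppl1 at 20.6 and 32.2 CPM (0.64, 0.39 to 0.90), and the median was 0.19. Over all genes tested 3.8% were higher in HFD, with a median of -0.01, and nothing particular to this list is read from the count of 1. Inpp5d, the phosphatase bound by the Fcgr2b protein, was at 79.8 and 87.4 CPM (0.13, -0.01 to 0.27), and the phosphatase Ptpn6 at 121 and 150.3 CPM (0.31, 0.20 to 0.42). In Lyve1+ over Lyz1-high cells in CD, 2 of 16 tested activating genes were higher and 5 lower (median -0.26), and in HFD 1 of 15 higher and 6 lower (median -0.13), beside 25.3% higher and 11.5% lower of all genes in CD and 23.4% and 13.8% in HFD. Tyrobp was lower in value in Lyve1+ cells in both libraries (-0.41 and -0.67), in contrast to Fcer1g, the other adapter of this kind (0.34 and 0.25). Inpp5d was higher in value there (0.54 in CD and 0.86 in HFD). Of the inhibitory list as a whole, 0 of 10 tested genes were higher and 1 lower in CD (median 0.14). In HFD 1 of 9 was higher and 1 lower (median 0.03), beside the same shares of all genes.

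Other Fc receptors were close to absent. Of 11 such genes, 6 had no UMI in kept cells of either library, among them Fcer1a and Fcer2a. The most abundant, the cytosolic antibody receptor Trim21, had 47 UMIs in CD and 24 in HFD. Of the 13 immunoglobulin constant region and joining chain genes, 9 had no UMI, and these included the IgG heavy chain genes Ighg1, Ighg2b, Ighg2c and Ighg3 and the light chain gene Igkc. Of the other 4, Iglc1 and Jchain had at most 2 UMIs in a library, and Ighd had 86 UMIs in CD and 7 in HFD, a log2 ratio of -3.02 (-4.37 to -1.91) on fewer than 100 UMIs. Ighm was at 248 CPM in CD (3051 UMIs) and 111 in HFD (894 UMIs), which was lower in HFD (-1.17, -1.28 to -1.06). Ighm was higher in Lyve1+ than in Lyz1-high cells in both libraries (411 against 72.8 CPM in CD, 244 against 49.8 in HFD).

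Thinned to 800 UMIs, 4 of the 7 genes had shares of cells with a UMI whose intervals did not overlap between the diets. Besides Fcgr4 and Fcer1g these were Fcgrt, at 42.5% in CD (40.5 to 44.5%) and 29.0% in HFD (27.0 to 31.1%), and Fcrls, at 29.1% (27.3 to 31.0%) and 22.8% (20.9 to 24.8%). The share of all genes with such intervals was not computed, so nothing particular to Fc receptor genes is read from the count. The unthinned shares were 81.5% and 54.2% for Fcgrt and 69.5% and 50.9% for Fcrls. Fcgr1 was found in 3.13% and 3.79% of thinned cells, Fcgr2b in 35.0% and 38.1% and Fcgr3 in 26.8% and 29.0%. Fcgr2b and Fcgr3 were found together in 10.7% of thinned cells in CD and 11.05% in HFD, and Fcgrt with Fcrls in 10.2% and 4.16%. Most thinned cells had a UMI of at least 1 of the 7 genes, all but 4.07% in CD and 6.40% in HFD, and in none were all 7 found.

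The patterns over the 6 non-overlapping classes of both libraries (12 points, which share libraries and depth) were compared with those of 1941 genes with at least 500 UMIs in each library, as Pearson's r of log2(CPM + 1). The genes most like Fcgrt were Igf1 (r = 0.99), Csf1r (0.98) and Igfbp4 (0.98), and those most like Fcgr1 were Ms4a6c (0.95), Ms4a6d (0.93) and Lst1 (0.91). Fcgr4 was most like Ifngr1 (0.93), Ptpn6 (0.93) and Mpeg1 (0.91), and Fcrls like Crip1 (0.89), Myl6 (0.87) and Nfam1 (0.87). For Fcgr2b they were Ly96 (0.91), Snx5 (0.90) and Akr1a1 (0.88), for Fcgr3 Calr (0.92), Card19 (0.91) and Fth1 (0.90), and for Fcer1g Hint1 (0.95), Cmtm7 (0.90) and Uqcrb (0.89). Fcgr1 and Fcgr4 had too few UMIs to be among the genes compared. The 12 points of Fcgr4 rest on 1 to 98 UMIs each and those of Fcgr1 on 2 to 271, so their r values are uncertain. Between members r was highest for Fcgr2b with Fcgrt (0.72) and lowest for Fcgr1 with Fcrls (-0.64).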

How the data were processed

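The authors deposited 1 matrix of UMI counts per library, made with 10x Genomics 3′ V2 chemistry and, per the labels, Cell Ranger 3.0.2 on mm10. The counts are raw, with no normalization. Kept cells had 200 to 3500 genes and at most 10% mt- UMIs. Counts were summed over the kept cells of each group, divided by the summed UMIs and given per 1000000 UMIs (CPM), with exact Poisson intervals. Ratios have exact conditional binomial intervals and shares Clopper-Pearson intervals, and differences of the activating to inhibitory ratio have Wald intervals on the counts. Intervals cover counting error only. With 1 library per diet no p-value was computed. Genes were called at 1.5-fold with at least 100 UMIs. Cells of other types were not removed. Scrublet in scanpy 1.11.5 called 2 and 6 doublets, too few to have worked, so its top scores were left out only as an alternative. Scripts ran in Python 3.11.15, numpy 2.4.6 and scipy 1.17.1 and were tested on simulated data. The named genes are the 7 members, pathway genes called between the diets, B2m, Tyrobp, Syk, Inpp5d and Ptpn6, and the 3 genes most like each member. Trim21, Fcer1a, Fcer2a and the immunoglobulin genes other than Ighm were named after their values were seen. Members and lists were chosen with earlier results of these data known. Not all marker lists are reported here.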

Additional observations from a re-analysis of the deposited data

Results flagged for a closer look

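Barcodes above the limit of 10% mitochondrial UMIs, 2059 in CD and 1132 in HFD, were used in no comparison of the report other than in part under the alternative limit of 20%. In them Fcgr4 was at 3.11 CPM in CD (7 UMIs) and 13.4 CPM in HFD (13 UMIs), a log2 ratio of HFD over CD of 2.11 (0.68 to 3.68), so that a signal above the CD level was present in data left out. The log2 ratio in kept cells was 1.64. In the same barcodes Fcgrt was at 949 and 641 CPM (-0.57, -0.70 to -0.44) and Fcer1g at 1431 and 1008 CPM (-0.51, -0.61 to -0.40), while the interval of Fcgr3 spanned 0 (197 and 197 CPM).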

How the results depend on the processing

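No paired analysis was possible because each diet had 1 library, and no replicate could be left out. Over all kept cells 1 member was higher and 1 lower in HFD. With cells thinned to 800 UMIs, or in cells with under 1000 genes, 0 were higher, since Fcgr4 then had fewer than 100 UMIs. The number lower was 2 in cells with 2000 to 3500 genes, 2 without Plac8+ cells and 0 with the CD mix of classes. Over the 35 combinations of 7 genes and 5 groups, 3 were higher and 5 lower. Beside them, 2.99 to 5.4% of all genes tested in a group were higher and 4.48 to 6.8% lower. The groups share cells, so these combinations are not independent. Thinning gave 0 higher and 3 lower, a mitochondrial limit of 5% gave 3 lower, and non-overlapping classes gave 1 higher. The ratio of Fcgrt was -1.34 in all Ccr2+ cells. In the non-overlapping Ccr2+ class it was 0.11, but that class held only the 98 CD and 235 HFD cells that met no gate but Ccr2. For Lyve1+ over Lyz1-high cells in HFD the number higher was 2, in place of 1, with a limit of 5% and with at least 1000 genes, and the activating to inhibitory difference in CD was -0.16 with a limit of 5%, in place of -0.32. The causes of these other changes were not tested. Scaling by the median of ratios moved the median gene between the diets by 0.01. Of 805 values of single members under alternatives, 682 stayed within the interval of the reported value, 122 left it, and 1 called value changed sign. In all 42 of them changed sign, the rest of them for members not called as higher or lower. The mix of classes, the removal of Plac8+ cells and the removal of cells with a stromal UMI were chosen after seeing the data. In CD Plac8+ cells, where stromal markers summed to 1922 CPM, the last of these left the ratio of Fcgr1 at -0.08 and that of Fcgr4 at 0.09. Fcgr1 and Fcgr4 in Plac8+ cells rest on 29 to 56 UMIs per library.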
